A study of Homo sapiens with 8 samples.

Results

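H820 is an established human lung line that the labels call adenocarcinoma, measured here as pneumospheres, floating balls of tumour cells. Both H820 libraries were compared with the 6 libraries of the other lines, so the set was 2 of the 8 libraries of the study, chosen by the cell line label alone. The other lines were H23 and H1975, labelled adenocarcinoma, and EBC1, labelled squamous cell carcinoma. From every line 1 library came from untreated spheres and 1 from spheres stimulated in medium without serum for 15 min with 25 µg/ml PD-L1s, the soluble synthetic version of PD-L1, a ligand that restrains T cells. All 8 cultures shared ultra-low attachment flasks and serum-free medium with what the design text calls epithelial growth factor, with fibroblast growth factor and with a B-27 supplement. Total RNA was sequenced after removal of ribosomal RNA. Each group stands for a single line, so a difference described below belongs to H820 as grown here and not to a class of tumours. The p-values measure the spread between the 2 libraries of a line, which nothing in the labels describes as separate cultures and which differed in treatment, a term of the model.

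Tumour lines of the lung keep parts of the gene programme of the airway or alveolar cell they came from, and may also switch on genes of other organs that arise from the embryonic gut. Secretory cells of the airway make mucins, antimicrobial proteins and chemokines, and the dual oxidases at their surface produce hydrogen peroxide. Hepatocyte nuclear factors and FOXA factors are DNA-binding proteins that drive such secretory genes in liver, gut and pancreas.

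Levels are given in CPM, which scales each library's counts to a common total by the TMM method, and a pair of levels is always untreated and then treated. A gene was called when the adjusted p of edgeR's quasi-likelihood test with Benjamini-Hochberg adjustment (written below as edgeR adjusted p) was under 0.05 for H820 against the mean of the other lines. The stricter call used most below asked for the same direction in that contrast and against each of the other 3 lines, with both H820 libraries outside the range of the other 6; such genes are described as higher or lower against every line. Of 23419 genes tested, 7128 (30.4%) were called higher in H820 and 5394 (23%) lower. Against every line, 2543 (10.9%) were higher and 1701 (7.26%) were lower. Calls against each of the 3 lines, without the condition on overlap, numbered 2573 (11%) and 1738 (7.42%), and calls against the mean without overlap 3691 (15.8%) and 2794 (11.9%). These shares are the background for every count below. The filter on low counts kept 984 genes only through H820, since fewer than 2 of the other 6 libraries reached its level, and such a gene could hardly be called anything but higher. Of the other 22435 genes, 2055 (9.16%) were higher and 1701 (7.58%) lower against every line. The 2 H820 libraries resembled each other (Pearson r across genes 0.9840) less than the pairs of the other lines did (0.9923 to 0.9971), and their r with libraries of other lines was 0.8278 to 0.8838. They differed in depth, with 5559870 counts untreated and 23783679 treated, in a series of 5559870 to 27524854 counts. Mitochondrial genes took 4.16% of the counts of untreated and 2.54% of treated H820, against 0.997% to 2.64% in the other lines.

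The label was compared with marker genes. DUOXA2, CEACAM5 and MMP7, named as marks of H820 with these data known, were all high in both of its libraries and at most 6.5 CPM elsewhere. Of 7 lung adenocarcinoma markers 5 were tested and 4 were called higher, among them NKX2-1, the transcription factor of lung lineage, at 36.5 and 55.3 CPM. SLC34A2 alone was higher against every line: KRT7 lay below EBC1 and H1975, and EPCAM differed from neither past the threshold (log2 differences -0.21 and 0.31, edgeR adjusted p = 0.287 and 0.113), so both were called through H23. NKX2-1 was higher still in H1975 (80.7 and 77.3 CPM), at 5.6 and 5.82 CPM in H23 and at 0 and 0.23 in EBC1. The surfactant genes SFTPA1 and SFTPC had no count in either H820 library and SFTPB had 0 and 0.238 CPM, so the defining products of the alveolar type 2 cell were absent or nearly so. The squamous factor TP63, at 0 and 0.38 CPM in H820, 0.197 and 0.321 in EBC1 and 89.6 and 89.2 in H1975, was the only squamous marker tested and was called lower, but not without H1975, and the only neuroendocrine marker tested did not pass. EBC1 had no count of the squamous markers KRT5, KRT14 and DSG3, and all 5 squamous markers summed to 0.197 and 0.459 CPM in it, so these markers did not bear out its label. The leukocyte gene PTPRC had no count in H820, and of 7 tested leukocyte markers 3 were called higher. The list summed to 76.4 and 142 CPM in H820 against 8.85 to 167 CPM. Most of the H820 sum was CD68, at 67.5 and 134 CPM. CD68 had 4.65 and 6.23 CPM in H23 and 126 to 155 CPM in EBC1 and H1975. Of 3 endothelial markers 1 was called higher and of 8 fibroblast markers 3 were higher and 3 lower. Summed erythroid markers came to 22.4 and 0.904 CPM in H820, against 0.37 to 1.38 CPM in the other lines, and the part of that in the results was not tested.

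The gene pair with the widest gap was DUOX2 and DUOXA2. DUOX2 encodes a dual oxidase that releases hydrogen peroxide, and DUOXA2 encodes the maturation factor that takes it to the cell surface. The genes lie head to head on chromosome 15, with DUOXA2 at 45406519 to 45410619 and DUOX2 at 45384848 to 45406542 in the GRCh37 annotation of the files, where their first bases overlap. In RefSeq on GRCh38.p14, a different annotation, a short stretch lies between their starts, and it is shown because both genes were high in the same libraries. It is 153 bases long, chr15:45114173-45114325 on the plus strand, taken from the RefSeq promoter entry of DUOXA2, and the capitals mark the TATA box letters TATAAA, which begin 32 bases before the DUOXA2 start.
Between DUOX2 and DUOXA2: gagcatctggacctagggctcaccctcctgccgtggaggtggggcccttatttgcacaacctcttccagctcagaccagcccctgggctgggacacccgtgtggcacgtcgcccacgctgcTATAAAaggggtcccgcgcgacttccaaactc
Those letters, read on both strands, occur in 10.7% of the 35116 RefSeq promoter windows of 250 bases, and the match is a description only.

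DUOXA2 had 237 and 587 CPM in H820, 0.247 and 0 in H23, 0 and 0.0459 in EBC1 and 0 in both H1975 libraries. The lower H820 library lay 959-fold above the highest other library, and the fitted log2 difference was 13.53 ± 0.295 (SE; edgeR adjusted p = 6.42e-16). A fitted value of a gene at or near 0 in some line depends on the prior count of the fit, so the fold between the nearest libraries is given below where the counts allow. In these bulk libraries fewer cells with a transcript and less of it per cell cannot be told apart. DUOX2 had 1239 and 2225 CPM in H820, 1.93 and 1.65 in H23, 0.197 and 0.0459 in EBC1 and 2.02 and 2.52 in H1975. The nearest libraries were 491-fold apart (log2 difference 11.28 ± 0.209, edgeR adjusted p = 2.38e-17). Per kilobase of exon, the 2 genes were at similar levels in treated H820 (340 CPM per kilobase for DUOX2 and 334 for DUOXA2) and at 190 and 135 in untreated H820. Of the 15 listed dual oxidases, NOX enzymes and their partners, 11 were tested, 6 were called higher and 2 lower, and 3 were higher against every line. The third was NCF4, a cytosolic partner of the phagocyte oxidase, at only 3.82 and 2.62 CPM. The filter kept 2 of the 11 only through H820. Among the other 9, 4 were called higher and 1 (11.1%) was higher against every line, beside 9.16% of all such genes. NOXA1, an activator of NOX1, was lower against every line at 8.33 and 9.23 CPM against 9.65 to 20.2 CPM.

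The 12 protein-coding genes with the largest fitted difference held, beside DUOXA2, DUOX2 and CEACAM5, genes of several unrelated functions. KIT, the receptor kinase for stem cell factor, had 559 and 873 CPM in H820 and at most 1.13 CPM in the others, so the nearest libraries were 493-fold apart (log2 difference 11.87 ± 0.187, edgeR adjusted p = 3.42e-18). HHLA2, a checkpoint ligand of the B7 family, had 62.9 and 173 CPM in H820 and at most 0.258 CPM elsewhere, a gap of 244-fold. FGB, the beta chain of fibrinogen, had 19.4 and 150 CPM in H820 and 0.206 CPM in a single H23 library, with no count in the other 5 libraries. These genes were thus near silence in the other spheres, and in H820 the 2 libraries stood apart from each other by less than either stood from the rest.

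TMPRSS11D, an airway trypsin-like protease, had 58.7 and 82.8 CPM in H820 and at most 0.291 CPM elsewhere, a gap of 202-fold. TOX3, an HMG-box nuclear protein, had 96 and 75.7 CPM and was detected in EBC1 too, at 2.36 and 3.44 CPM, a gap of 22-fold. SYCE1, a protein of the synaptonemal complex of meiosis, had 35.1 and 59 CPM against at most 0.0412 CPM, which is a single count. ARL11 (14.4 and 20 CPM) and MARCH1, a membrane ubiquitin ligase (19.4 and 23 CPM), were at most 0.0515 and 0.103 CPM in the others. CTB-16J4.1, listed as protein-coding on chromosome 7 (89945817 to 89950622, GRCh37), had 63.7 and 85.9 CPM and no count in the other 6 libraries, which makes it at least 2830-fold higher with a floor of 3 counts over that group.

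**Figure D1:**
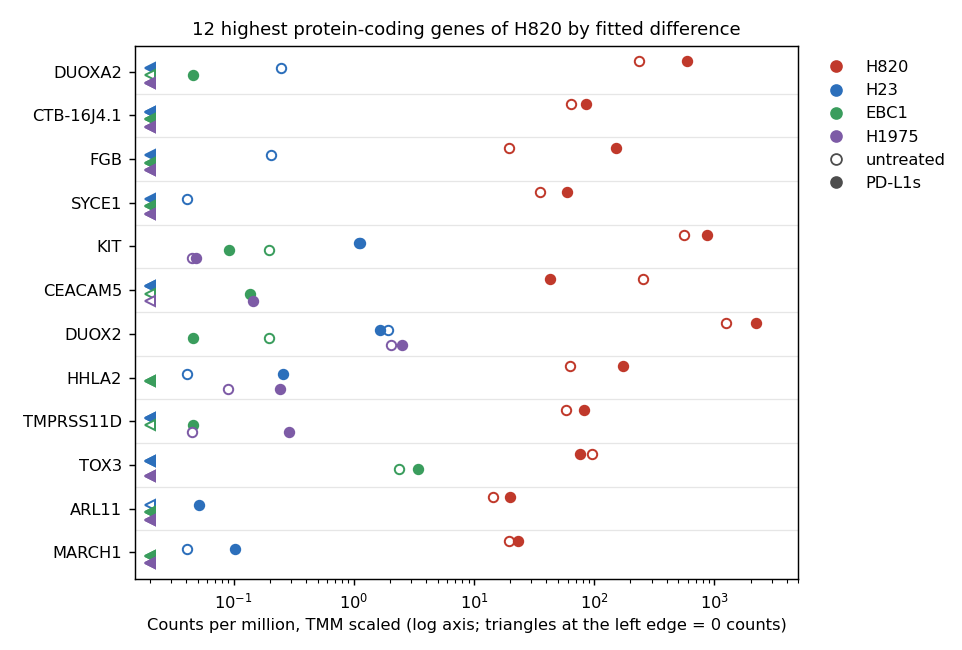
Levels per library (CPM, TMM scaled, log axis) of the 12 protein-coding genes with the largest fitted difference; colours are lines, open circles untreated and filled circles PD-L1s libraries, and triangles mark libraries with no count. The H820 points lie to the right of every other point in all 12 genes, the closest being TOX3 at 75.7 CPM in H820 against 3.44 CPM in EBC1.

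CEACAM genes encode immunoglobulin-type adhesion molecules of mucosal surfaces, and CEACAM5 is the carcinoembryonic antigen measured in the blood of patients. CEACAM5 had 256 and 42.6 CPM in H820, 0.138 CPM in treated EBC1, 0.146 in treated H1975 and no count in the other 4 libraries (log2 difference 11.56 ± 0.331, edgeR adjusted p = 1.48e-14). Of the 12 family members, 7 were tested and 5 were higher against every line (10.9% of all genes were). The filter kept 4 of the 7 only through H820, and of the other 3 members 2 were higher against every line. CEACAM7 had 59.9 and 8.94 CPM, CEACAM6 10.9 and 1.85, CEACAM1 31.4 and 41.2, and CEACAM19 106 and 97.3 CPM in H820. In the other lines the highest level was 0.291 CPM for CEACAM7, 0.0515 for CEACAM6, 5.67 for CEACAM1 and 25.6 for CEACAM19. CEACAM5, CEACAM6 and CEACAM7, neighbours on chromosome 19, were lower in treated than in untreated H820 and yet above all other libraries in both. AC011513.3, which overlaps CEACAM5 and shares reads with it, had 52.8 and 9.13 CPM and no count elsewhere.

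MMP7, matrilysin, is the matrix metalloprotease made by epithelial cells themselves. MMP7 had 285 and 1074 CPM in H820, 0.206 and 0.361 in H23, 6.5 and 5.42 in EBC1 and 0.0449 and 0.243 in H1975. The nearest libraries were 43.9-fold apart (log2 difference 9.98 ± 0.265, edgeR adjusted p = 1.61e-15). The family did not move as a whole. Of 18 tested members of 23 listed proteases and inhibitors, 5 were called higher and 4 lower, with a median log2 difference of 0.137, or -0.897 as a log2 ratio of mean CPM with a floor of 3 counts, against 0.036 and -0.188 over all genes tested. MMP24 was the only other protease higher against every line, at 2.6 and 3.28 CPM. Lower against every line were MMP17, a membrane-anchored protease (0.347 and 0.19 CPM against 17.1 to 50.5), MMP14, which activates other proteases at the cell surface (54.9 and 90 CPM against 157 to 688), and MMP9 (0.521 and 0.571 CPM against 0.788 to 9.99). Because MMP7 had the widest gap of the listed proteases, its upstream sequence is shown, the 250 bases before the gene start on the minus strand, chr11:102530748-102530997 of GRCh38.p14 from RefSeq. Capitals mark the AP-1 motif TGANTCA, whose match begins 67 bases before the start and whose letters occur on either strand in 6.57% of promoter windows.
MMP7: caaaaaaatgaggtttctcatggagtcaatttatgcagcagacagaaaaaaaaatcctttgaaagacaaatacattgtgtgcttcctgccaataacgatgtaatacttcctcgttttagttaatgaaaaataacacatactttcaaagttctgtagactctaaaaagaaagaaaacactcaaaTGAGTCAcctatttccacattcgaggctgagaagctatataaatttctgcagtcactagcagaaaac

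Mucins are the large glycoproteins of mucus, some secreted as gels and others tethered to the membrane. Of 16 listed mucins 12 were tested, and 8 were higher against every line while 2 were called lower, though not against every line. The filter kept 4 of the 12 only through H820, and 4 of the other 8 were higher against every line. The gel-forming MUC5B had 85.6 and 63.3 CPM in H820, at most 0.0823 CPM in H23 and EBC1 and 1.71 and 1.75 CPM in H1975, a gap of 36.3-fold (log2 difference 9.53 ± 0.218, edgeR adjusted p = 1.03e-15). MUC5AC, the gel-forming mucin of goblet cells, had 47.6 and 9.8 CPM against at most 0.146 CPM, and MUC2, that of the intestine, 13.9 and 20.9 CPM against at most 0.728 CPM. The membrane mucins MUC20 (204 and 223 CPM against at most 15.2), MUC13 (22.7 and 16.8 CPM against at most 0.18) and MUC3A (40.6 and 36.5 CPM against at most 15.1) were high in both libraries too. MUC21 and MUC22 were above the others at 1.74 to 4.42 CPM. Summed over the 16 listed mucins, however, H820 had 703 and 775 CPM and H1975 had 2511 and 2556 CPM. The sums were 704 and 499 CPM in EBC1 and 132 and 139 CPM in H23, so H820 was not the line with the most mucin transcript.

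Several goblet cell genes outside the mucin family were high in H820 too. Of 24 listed genes of airway club and goblet cells, 13 were tested, 12 were called higher and 8 were higher against every line. The list includes the mucins MUC5AC and MUC5B, which are also counted among the mucins above. Of the 10 that did not pass the filter through H820 alone, 9 were called higher and 5 were higher against every line. SPDEF and FOXA3, transcription factors of goblet cell formation, had 20.1 and 23.6 CPM and 46 and 52.7 CPM in H820, and at most 0.269 and 1.03 CPM in the others. PIGR, the receptor that carries antibodies across epithelium, had 34 and 83.8 CPM against at most 3.19 CPM. LCN2, the iron-binding lipocalin, reached 2940 and 4082 CPM, and the other lines held 1.93 and 0.721 (H23), 838 and 893 (EBC1) and 203 and 223 CPM (H1975). The trefoil peptide TFF1 had 13.7 and 10.5 CPM against at most 1.26 CPM. The club cell secretoglobins SCGB1A1, SCGB3A1 and SCGB3A2 had no count in H820, nor in the others.

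Genes known from stomach and gut were detected in the same spheres. Only 7 of 25 listed gastrointestinal epithelial genes passed the filter, 3 of them through H820 alone, so that their calls say little about the list. The other 4 were called higher, 2 of them against every line. VIL1, villin of the brush border, had 36.8 and 37 CPM in H820 and at most 0.361 CPM elsewhere, a gap of 102-fold. GCNT3, which branches the sugar chains of mucins, had 85.1 and 57 CPM against at most 1.44 CPM. CDH17, the intestinal cadherin, and LYZ, lysozyme, were low at 2.43 to 3.82 CPM but above all others. Most listed genes of differentiated gut cells were not tested: FABP2, REG4, GKN2, CLDN18, GUCA2A and GUCY2C had no count in H820.

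Among 25 tested of 28 listed transcription factors of lung and foregut, 18 were called higher and 3 lower, with 12 higher and 1 lower against every line. Of the 23 that did not pass the filter through H820 alone, 16 were called higher and 10 were higher against every line. HNF4G, a nuclear receptor of the intestine, had 34.6 and 66.5 CPM against at most 1.18 CPM, while its relative HNF4A had 0.174 and 0 CPM. FOXA1, which opens chromatin for such factors, had 100 and 141 CPM against 0.898 to 45.1 CPM. CDX2, the factor of intestinal identity, was low in H820 at 12.5 and 6.47 CPM, had 3 and 2.88 CPM in H23 and no count in EBC1 and H1975. CEBPA (33.3 and 22.6 CPM against 2.95 to 5.04), KLF5 (186 and 215 CPM against 4.2 to 55.3) and ELF3 (725 and 1061 CPM against 0.773 to 456) were higher against every line as well. ETV4, an ETS factor of growth factor signalling, was the member lower against every line, at 7.12 and 7.09 CPM against 10.5 to 35.5 CPM.

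HOX genes encode the factors that set position along the body axis. Of 39 HOX genes 37 were tested, 30 were called higher and 1 lower, and 14 were higher against every line. All of HOXB3 to HOXB9 were among these 14. Of the 35 that did not pass the filter through H820 alone, 28 were called higher and 13 were higher against every line. HOXB6 had 29.3 and 30.8 CPM in H820, 0.453 and 1.08 in H23, 5.91 and 4.68 in EBC1 and at most 0.0485 in H1975, and HOXB3 had 31.6 and 47.7 CPM against at most 7.82 CPM. Members of other clusters above every line included HOXA10 (11.1 and 10.8 CPM against 0.505 to 6.96) and HOXC6 (23.6 and 20 CPM against 3.15 to 11.7). The median log2 difference over the tested members was 2.35, and 1.35 as the floored ratio.

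**Figure D2:**
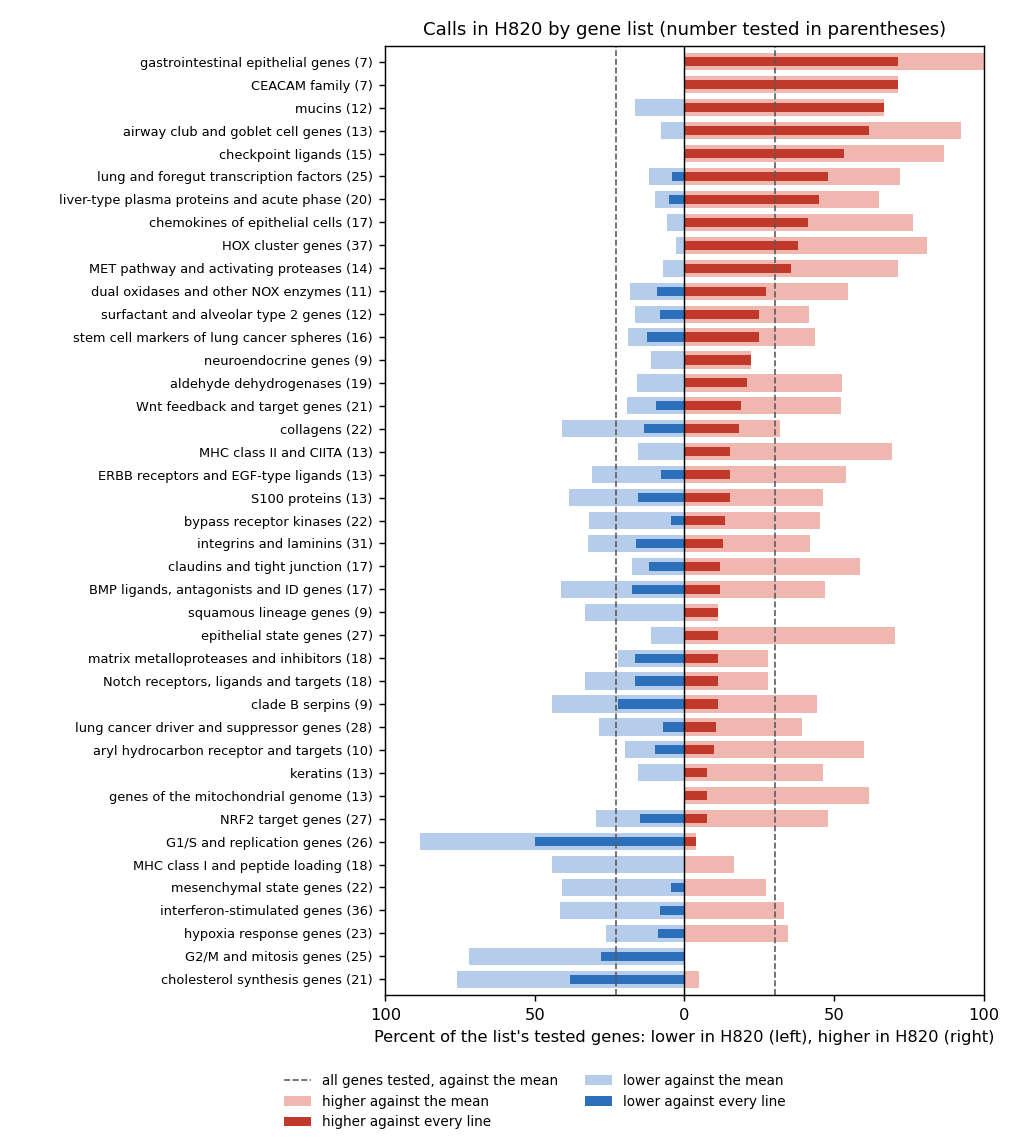
Share of each gene list's tested members that was called higher (right) or lower (left) in H820, against the mean of the other lines (pale) and against every line (dark); dashed lines show the shares over all 23419 genes tested, 30.4% higher and 23% lower. Lists are sorted by the share higher against every line, in which gut, CEACAM, mucin and goblet cell lists lie at the top; the filter kept 3 to 4 members of each of these only through H820, and G1/S, cholesterol and G2/M lists extend furthest to the left.

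Chemokines are small secreted proteins that attract leukocytes, and CXCL5 and CXCL6 attract neutrophils through the receptor CXCR2. CXCL5 had 1541 and 3311 CPM in H820, 2.35 and 1.6 in H23, 3.94 and 5.51 in EBC1 and 8.21 and 8.97 in H1975, a gap of 172-fold. CXCL6 had 881 and 1256 CPM in H820 and 0.184 to 3.3 CPM in the others, a gap of 267-fold (log2 difference 10.16 ± 0.162, edgeR adjusted p = 3.42e-18). Per kilobase of exon CXCL5 was above CXCL6 in both libraries, at 607 and 1305 against 479 and 683 CPM per kilobase. Both genes lie on chromosome 4, CXCL5 at 74861359 to 74864496 and CXCL6 at 74702214 to 74704477 (GRCh37).

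Their upstream sequences are set side by side because the pair was high together. Each shows the 250 bases before the gene start in GRCh38.p14 from RefSeq, CXCL5 at chr4:73998678-73998927 on the minus strand and CXCL6 at chr4:73836428-73836677 on the plus strand. Capitals mark the NF-kB motif that was searched on both strands, which begins 91 and 90 bases before the starts.
CXCL5: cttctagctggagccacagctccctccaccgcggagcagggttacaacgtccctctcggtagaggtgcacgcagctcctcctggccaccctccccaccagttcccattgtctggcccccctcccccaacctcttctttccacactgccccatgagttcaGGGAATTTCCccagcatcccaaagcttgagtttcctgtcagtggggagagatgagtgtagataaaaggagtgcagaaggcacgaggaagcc
CXCL6: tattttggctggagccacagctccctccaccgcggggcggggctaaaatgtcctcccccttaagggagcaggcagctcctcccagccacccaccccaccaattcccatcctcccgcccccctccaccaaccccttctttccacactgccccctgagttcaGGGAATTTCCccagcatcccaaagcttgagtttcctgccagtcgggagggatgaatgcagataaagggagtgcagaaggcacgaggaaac
On both strands the motif was found in 50 of 35116 promoter windows (0.142%). Of the 18 listed chemokines with a promoter entry, 5 hold it: CXCL1, CXCL2, CXCL3, CXCL5 and CXCL6.

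Of 22 listed chemokines 17 were tested, 13 were called higher and 1 lower, and 7 were higher against every line. The filter kept 1 of the 17 only through H820, and of the other 16, 12 were called higher and 6 were higher against every line. CCL28, a mucosal chemokine, had 302 and 514 CPM in H820 against 0.735 to 36 CPM, a gap of 8.4-fold. CCL20, which attracts dendritic cells and Th17 cells, had 35.9 and 87.2 CPM against 0.576 to 4.26 CPM. CXCL16 (81.3 and 112 CPM against 6.42 to 31.6) and CCL2, the monocyte attractant (31.3 and 26.9 CPM against 0.78 to 6.64), were higher against every line. The interferon-induced CXCL9 and CXCL10 were at 0 and at most 0.0951 CPM in H820. Interferon-stimulated genes were mixed, with 12 of 36 called higher and 15 lower, and 3 lower against every line. OAS3, the RNA sensor, had 31.3 and 25.8 CPM against 43.9 to 264, and IFIT1 had 4.69 and 1.71 CPM against 4.89 to 121.

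Plasma proteins that the liver secretes in the acute phase were tested as a list of 33, of which 20 passed the filter. Of these 13 were called higher and 2 lower, and 9 were higher against every line. Among the 18 that did not pass the filter through H820 alone, 11 were called higher and 7 were higher against every line. FGA, the alpha chain of fibrinogen, had 1.74 and 12 CPM in H820 and 0.0823 CPM in a single H23 library, beside the levels of FGB given above. The complement factor B gene CFB had 739 and 1448 CPM in H820, 0.823 and 0.927 in H23, 463 and 525 in EBC1 and 536 and 565 in H1975. CFB was thus 1.31-fold above the nearest library, and CP, ceruloplasmin (110 and 100 CPM against 0.309 to 59.8), 1.68-fold. SAA1 and SAA2, serum amyloid genes that are near copies of each other and whose reads may be shared, had 83.5 and 151 and 115 and 176 CPM against at most 66.5 and 72.1 CPM. ALB, APOA1, APOB and TTR were at 0 to 0.571 CPM in H820, so the listed plasma proteins that were high did not include albumin or these carriers.

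Receptors and their ligands form the next group. EGFR had 228 and 278 CPM in H820, 54.2 and 58.4 in H23, 252 and 268 in EBC1 and 581 and 586 in H1975. H820 lay within the range of the other lines, and its difference from their mean did not pass the test (log2 difference 0.31 ± 0.129, edgeR adjusted p = 0.0536); it was -0.59 when H23 was left out. EGF, a ligand of EGFR, had 26.6 and 27.3 CPM in H820 against 0.247 to 1.07 CPM, a gap of 24.9-fold. ERBB3, the partner receptor, had 243 and 359 CPM against at most 223 CPM, and NRG1, a ligand of ERBB3, was lower against every line at 0.521 and 1.28 CPM against 1.75 to 14.9. Of 15 listed ERBB receptors and ligands 13 were tested, 7 were called higher and 4 lower.

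MET, the receptor for hepatocyte growth factor, had 1206 and 1747 CPM in H820, 61.4 and 64.7 in H23, 6958 and 7790 in EBC1 and 491 and 528 in H1975. H820 was therefore second to EBC1, and the call of a higher level (log2 difference 1.24 ± 0.159, edgeR adjusted p = 2.70e-06) turned to -0.38 without H23. Of 14 tested genes of the MET pathway list, 10 were called higher and 1 lower. Only 5 were higher against every line, beside 10.9% of all genes tested. These 5 were surface proteases and inhibitors of the group that governs the activation of the ligand of MET. The protease gene ST14 was not among them, and its log2 difference changed sign without H23. TMPRSS2 had 113 and 148 CPM against at most 1.71 CPM, a gap of 66.3-fold, and TMPRSS4 had 176 and 272 CPM against at most 44.1 CPM. Their inhibitors SPINT2 (1265 and 1560 CPM against 55.5 to 620) and SPINT1 (247 and 324 CPM against 5.2 to 243) were high too, as was the protease gene HPN (9.55 and 13.6 CPM against at most 7.5).

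Of a list of 23 further receptor kinases, which includes the ligand gene GAS6, 22 were tested, 10 were called higher and 7 lower, with only KIT, FGFR3 and INSR higher against every line. FGFR3, a fibroblast growth factor receptor, had 104 and 128 CPM in H820 against 0.197 to 7.67 CPM, a gap of 13.6-fold. INSR, the insulin receptor, had 204 and 273 CPM against 14.6 to 93.1 CPM. PDGFRB was lower against every line at 0 and 0.38 CPM, in a range that reached only 1.84 CPM.

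Many genes of the checkpoint list encode ligands that restrain T cells, though not all do, and CD274 encodes PD-L1 itself. CD274 had 25 and 46.4 CPM in H820, 0.206 and 0.103 in H23, 13 and 13.1 in EBC1 and 9.56 and 12.2 in H1975. The nearest libraries were 1.9-fold apart (log2 difference 3.63 ± 0.191, edgeR adjusted p = 1.52e-11). Of 18 listed genes 15 were tested, and the filter kept 1 of them only through H820. Of the other 14, 12 were called higher and 7 were higher against every line. Of all 15 tested, 13 were called higher, and 8 were higher against every line. Beside CD274 and HHLA2 these were ICOSLG (92.7 and 74.7 CPM against 5.16 to 47.1), PVR, a ligand of TIGIT (320 and 309 CPM against 35.8 to 173), the galectins LGALS3 (260 and 473 CPM against 4.02 to 239) and LGALS9, and the butyrophilins BTN2A2 and BTN3A1, whose gaps were 1.02-fold and 1.1-fold.

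Class II MHC genes, which present peptides to CD4+ T cells, were counted higher in 9 of 13 and lower in 2, but only HLA-DMB and HLA-DOB were higher against every line. The filter kept 1 of the 13 only through H820, and 1 of the other 12 was higher against every line. HLA-DRA had 10.8 and 27.2 CPM in H820, no count in H23, 67.7 and 85.6 CPM in EBC1 and 20.1 and 21.1 in H1975, and its log2 difference of 3.08 became -1.06 without H23. CD74, the invariant chain, had 35.9 and 87.8 CPM against 387 and 477 in EBC1 and 151 and 160 in H1975. Without the treated H820 library 5 class II genes were called higher and 1 lower, and after thinning to the smallest library 4 and 1. The list's median was 1.09 as fitted and -1.07 as the floored ratio of means. For class I genes and peptide loading, 3 of 18 were called higher and 8 lower. HLA-B and HLA-C lay above H23 and below EBC1 in both libraries. The counts were 6 and 7 without the untreated and 0 and 10 without the treated H820 library.

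Among the 12 protein-coding genes with the lowest fitted difference, VIM had the widest gap, and NR2F1 the lowest fitted value. Vimentin, the intermediate filament of mesenchymal cells, had 1.74 and 2.33 CPM in H820, 927 and 842 in H23, 261 and 306 in EBC1 and 454 and 459 in H1975. The higher H820 library lay 112-fold below the lowest other library (log2 difference -7.82 ± 0.244, edgeR adjusted p = 1.30e-14). NR2F1, a nuclear receptor of neural and mesenchymal development, had 0.694 and 0.0476 CPM against 18.8 to 131 CPM, a gap of 27-fold. CRIP1, a small LIM protein, had 0.521 and 0.285 CPM against 18.3 to 142, and AL928654.7, which overlaps it and shares reads, 1.56 and 1.38 CPM against 20.5 to 145. EEF1A2, a translation elongation factor, was still detected at 24.1 and 31.3 CPM but reached 303 to 736 CPM in the others.

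The other 6 of the 12 lowest genes, apart from MMP17 above, were OLFM1, STMN3, ICAM5, DNAH11, MARVELD1 and P3H2. OLFM1, an olfactomedin, had 1.22 and 1.05 CPM against 12 to 72.6 CPM, and STMN3, a microtubule regulator of neurons, 1.22 and 2.76 CPM against 27.3 to 139 CPM. DNAH11, a motor protein of cilia, had 5.38 and 14 CPM against 48.1 to 584 CPM. P3H2, which modifies collagen, had 2.26 and 1.43 CPM against 14.7 to 52 CPM.

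**Figure D3:**
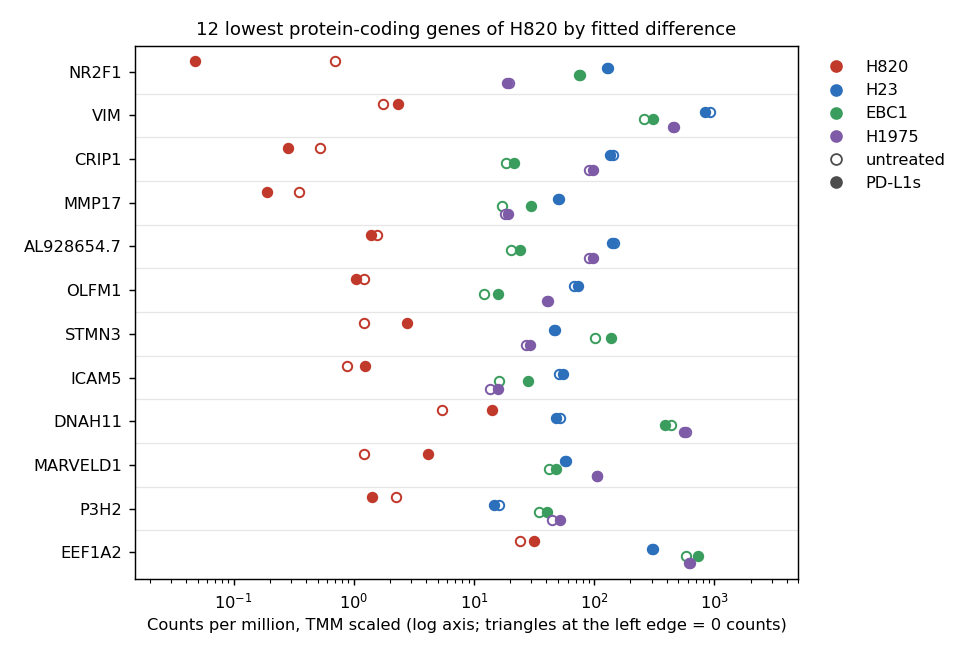
Levels per library (CPM, TMM scaled, log axis) of the 12 protein-coding genes with the lowest fitted difference; colours are lines, open circles untreated and filled circles PD-L1s libraries. The H820 points lie left of every other point in each gene, from 112-fold apart for VIM to 3.43-fold for DNAH11.

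Of 22 listed mesenchymal genes all were tested, 9 (40.9%) were called lower and 6 (27.3%) higher, against 23% and 30.4% of all genes tested. Their median log2 difference was -0.78, and -1.70 as the floored ratio, and VIM alone was lower against every line. In the epithelial list 19 of 27 were called higher and 3 lower, but only ELF3, GRHL2 and RAB25 were higher against every line, and H23 was the lowest line for each epithelial gene and keratin named in this paragraph. CDH1, E-cadherin, had 340 and 510 CPM in H820, 2.06 and 1.7 in H23, 1160 and 1316 in EBC1 and 868 and 885 in H1975, so that its log2 difference of 1.72 became -1.28 without H23. EPCAM had 216 and 293 CPM in H820, within the 191 to 310 CPM of EBC1 and H1975. The keratins KRT8 (217 and 284 CPM) and KRT18 (124 and 159 CPM) were called lower, and lay above H23 and below EBC1 and H1975; for KRT8 the log2 difference of -0.60 became 0.053 without EBC1 and 0.020 without H1975. KRT7 had 119 and 176 CPM in H820, at most 0.361 in H23 and 389 to 602 CPM in EBC1 and H1975; its log2 difference of 1.74 became -1.85 without H23.

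Genes of adhesion and matrix went in both directions. Among 31 integrins and laminins 4 (12.9%) were higher and 5 (16.1%) lower against every line, beside 10.9% and 7.26% of all genes. ITGB8, a partner in the activation of latent TGF-beta, had 355 and 466 CPM in H820 against 15.1 to 104 CPM, and ITGAV, its alpha chain, 519 and 722 CPM against 216 to 285 CPM. ITGB3 (0.694 and 0.761 CPM against 4.9 to 50.3) and ITGA6, the laminin receptor (55 and 61.2 CPM against 81.5 to 275), were lower. Among 22 collagens 4 (18.2%) were higher and 3 (13.6%) lower against every line. COL18A1 had 176 and 220 CPM against 35.8 to 74.6, and COL7A1, the anchoring fibril, 7.47 and 6.32 CPM against 15.9 to 273. In the S100 family S100P was high (39.9 and 55 CPM against at most 4.58) and S100A10, the annexin A2 partner, was low (23.6 and 30.2 CPM against 230 to 533). In clade B serpins SERPINB9, the inhibitor of granzyme B, had no count in H820 and 3.76 to 9.85 CPM in the others, which makes it at least 60.8-fold lower.

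Genes that copy DNA were low in H820. Of 26 genes of G1/S and replication all were tested, 23 were called lower and 1 higher, with 13 lower and 1 higher against every line (7.26% and 10.9% of all genes). PCNA, the sliding clamp, had 17.5 and 25.3 CPM in H820, 81.1 and 81.8 in H23, 110 and 119 in EBC1 and 42.6 and 47 in H1975 (log2 difference -1.79 ± 0.144, edgeR adjusted p = 6.32e-09). CDT1, a licensing factor, had 7.12 and 16.7 CPM against 50.2 to 92.9 CPM, a gap of 3-fold, and MCM2, of the replicative helicase, 15.5 and 35.2 CPM against 56.6 to 154 CPM. TYMS, which makes thymidylate, had 3.3 and 13 CPM against 17.1 to 152 CPM. The exception was CCNE1, cyclin E1, at 25.2 and 28.5 CPM against 3.99 to 19.2 CPM, while CCNE2 was low at 3.82 and 4.85 CPM against 7.99 to 14.6 CPM. The list's median was -1.36, and -1.52 as the floored ratio, and 22 and 24 members were called lower when the untreated or the treated H820 library was left out.

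Genes of mitosis were lower too, with a wide distance between the H820 libraries. Of 25 tested 18 were called lower, 7 of them against every line. MKI67, the proliferation antigen, had 21.7 and 172 CPM in H820 against 194 to 339 CPM in the others. CCNB1, the mitotic cyclin, had 9.38 and 30.5 CPM against 38.8 to 80 CPM, and AURKB, a mitotic kinase, 3.65 and 12.2 CPM against 18.4 to 39.2 CPM. The summed level of the list was 357 CPM without and 1546 CPM with treatment in H820, against 1099 to 2820 CPM, so that the treated library was within the range of the others. Without the untreated library 16 members were called lower and 3 higher, and without the treated library 25 were lower.

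Cholesterol synthesis was the other pathway that was low as a group. Of 21 genes 16 were called lower and 1 higher, and 8 were lower against every line. FDPS, an enzyme of isoprenoid synthesis, had 35.6 and 48.4 CPM in H820, 173 and 156 in H23, 163 and 155 in EBC1 and 110 and 104 in H1975 (log2 difference -1.73 ± 0.151, edgeR adjusted p = 1.79e-08). IDI1, which makes an isoprenoid building block, had 16.5 and 23 CPM against 41.7 to 167 CPM. IDI1, CYP51A1, FDFT1, MVD and HSD17B7 were lower against every line as well, with gaps of 1.43 to 1.81-fold. When the untreated or the treated H820 library was left out, 15 and 18 members were called lower. The list's median was -1.25, and -1.77 as the floored ratio.

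**Figure D4:**
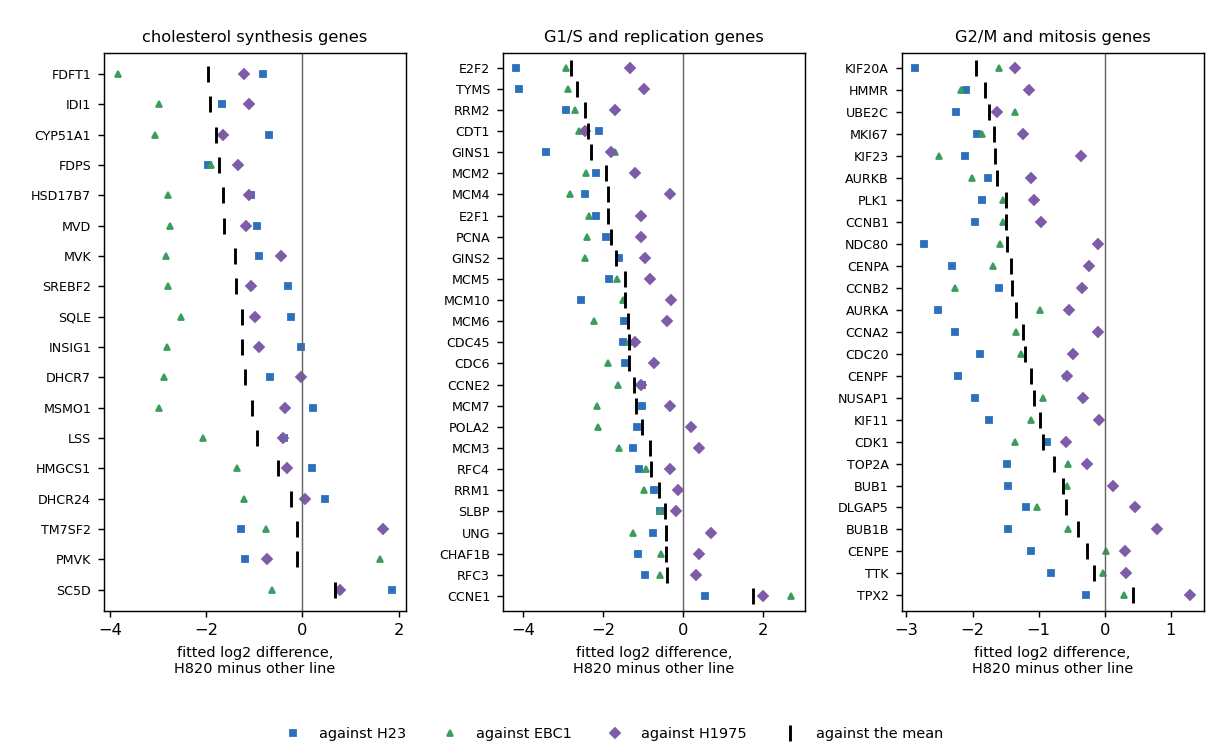
Fitted log2 difference of H820 from each other line (coloured marks) and from their mean (black bar) for members of the cholesterol, G1/S and G2/M lists, sorted by the mean; 3 cholesterol genes are not shown. Most marks lie left of 0, with CCNE1 the exception in the G1/S list.

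Genes that lung tumours often lose or gain were called in both directions. Of 28 drivers and suppressors 11 (39.3%) were called higher and 8 (28.6%) lower, against 30.4% and 23% of all genes tested. Against every line 3 (10.7%) were higher and 2 (7.14%) lower, near the shares of all genes (10.9% and 7.26%). CDKN2A, which encodes the inhibitors p16 and ARF, had 172 and 208 CPM in H820, 19 and 14.9 in H23, 5.12 and 7.12 in EBC1 and 61.9 and 68.4 in H1975. Its neighbour MTAP, a methionine salvage enzyme, had 146 and 170 CPM against 25.9 to 75.8 CPM, and CCNE1 was the third. HRAS (7.12 and 6.99 CPM against 12 to 19.9) and NRAS (53.3 and 69.8 CPM against 91.8 to 114) were lower against every line.

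Genes used to mark stem-like cells in spheres were split. ALDH1A3, a retinal dehydrogenase behind the aldehyde dehydrogenase activity of tumour cells, had 526 and 283 CPM in H820, 3.66 and 4.12 in H23, 77.8 and 88.8 in EBC1 and 13.9 and 12.6 in H1975. ALDH2, the mitochondrial enzyme of acetaldehyde, had 80 and 141 CPM against 2.56 to 10.1 CPM. Against every line, 4 of 19 aldehyde dehydrogenases were higher. Among the 18 that did not pass the filter through H820 alone, 3 (16.7%) were higher, beside 9.16% of all such genes. PROM1, which encodes CD133, was low but above the others (3.65 and 7.04 CPM against at most 0.689), whereas ABCG2, the side population transporter, had 0.347 and 0.143 CPM against 1.06 to 10.5. SOX2 had 16 and 13.6 CPM against 4.17 to 10.5 CPM. In the whole list of 16 tested, 4 were higher and 2 lower against every line. Among the 14 that did not pass the filter through H820 alone, 2 (14.3%) were higher and 2 (14.3%) lower. The shares of all such genes were 9.16% and 7.58%.

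Signalling lists showed single members rather than groups. In the Wnt list BAMBI (21.5 and 22.2 CPM against at most 4.89), WNT5A (16.1 and 22.4 CPM against at most 4.17) and RNF43, a feedback ubiquitin ligase (41 and 42.9 CPM against 8.07 to 13.5), were higher against every line, and NKD1 and TCF7 were lower. NOTCH1 had 16.8 and 23.6 CPM against 43.5 to 182 CPM. In the BMP list NOG, noggin, had no count in H820 and 1.26 to 272 CPM elsewhere, while BMP3 had 13.5 and 14.8 CPM against at most 1.38 CPM. NRF2 targets were not high together: of 27 tested, 2 were higher against every line and 4 lower, the latter including NQO1, a quinone reductase, at 122 and 86.2 CPM against 168 to 584 CPM. The light ferritin chain FTL was higher at 2712 and 3123 CPM against 696 to 1959 CPM.

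The remaining lists held few members above or below every line. Of 12 tested surfactant and alveolar type 2 genes 5 were called higher and 2 lower. Among the 10 that did not pass the filter through H820 alone, 3 (30%) were called higher, near the 28.6% of all such genes. SLC34A2, their phosphate transporter, had 6.25 and 28.2 CPM against at most 1.44. Of 17 tight junction genes 10 were called higher and 3 lower, and CLDN1 had 15.1 and 13.2 CPM against 20.1 to 150. Of 9 tested squamous genes 1 was called higher and 3 lower, and of 13 keratins 6 and 2. KRT20 of the gut was above every line at 1.22 and 2.19 CPM. The filter kept 1 of the 13 keratins only through H820, and none of the other 12 was higher against every line. Of 9 neuroendocrine genes 2 were called higher and 1 lower. The filter kept 1 of the 9 only through H820, and of the other 8, 1 was called higher and 1 lower. DDC, which makes dopamine and serotonin, had 4.17 and 7.51 CPM against at most 0.197. The defining genes NEUROD1 and INSM1 had no count in H820. Of 10 genes of the aryl hydrocarbon receptor 6 were called higher and 2 lower, and its target CYP1A1 stood in H820 at 23.1 and 0.38 CPM against 0.464 to 7.62 CPM, with a log2 difference of 1.77 that became -2.44 without the untreated library. Over those lists and the adhesion and signalling lists above, the called members were 13 higher and 10 lower among integrins and laminins, 7 and 9 among collagens, 6 and 5 of 13 S100 genes, 4 and 4 of 9 serpins, 11 and 4 of 21 Wnt genes, 5 and 6 of 18 Notch genes, 8 and 7 of 17 BMP genes, 13 and 8 of the NRF2 targets, 10 and 3 of the aldehyde dehydrogenases and 7 and 3 of the stem cell markers. Without the treated H820 library the higher calls fell to 2 for serpins, 3 for Notch genes and 4 for BMP genes, and without the untreated library the lower calls of the aryl hydrocarbon receptor list rose to 4.

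Calls of hypoxia genes depended on which H820 library was read, while the summed CPM of mitochondrial protein genes was above all other libraries in both. Of 13 mitochondrial protein genes 8 were called higher, and MT-CO3, a subunit of cytochrome oxidase, was higher against every line at 7300 and 7354 CPM against 1118 to 2476 CPM. Their summed level in H820 was 36449 and 26043 CPM, and 10725 to 25368 CPM in the others. Of 23 hypoxia genes 8 were called higher and 6 lower, but without the untreated library the counts were 14 and 4 and without the treated library 5 and 14.

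A further description asked which genes were on in H820 and off elsewhere, or the reverse. On meant at least 5 CPM in both H820 libraries and at most 0.2 CPM in each other library, and 38 genes met it, 26 of them protein-coding. They include, beside genes already given, SPINK1, a trypsin inhibitor (33 and 27.5 CPM). Of lower level were SFTA2, a surfactant-associated gene (6.42 and 12.6 CPM), and C4BPA, a complement regulator (7.47 and 9.37 CPM). So were FOLR1, the folate receptor (6.77 and 5.14 CPM), and the haematopoietic genes IKZF1 (6.94 and 7.51 CPM) and DOCK2 (6.25 and 5.75 CPM). The genes after SPINK1 were picked and are not the next by level, since KIR3DX1 and IQCA1, for example, had higher mean levels in H820. Only 3 genes were off in H820 and on in the others: FAM50B, with no count against 6.98 to 17.2 CPM and thus at least 88.9-fold lower, QDPR, the dihydropteridine reductase (0 and 0.0476 CPM against 7.47 to 15.1), and the antisense gene RP11-65F13.2. By the same rule 89 genes were on in H23, 41 in H1975 and 3 in EBC1, and 38, 19 and 50 were off.

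Differences were uneven along the genome. The median log2 difference was 0.84 on chromosome 4, where 500 of 889 genes were called higher and 57 lower, and 0.73 on chromosome 21 (153 higher and 13 lower of 289). It was -0.75 on chromosome 20 (82 higher and 331 lower of 630) and -0.56 on chromosome 16 (159 higher and 507 lower of 1188). On these 4 chromosomes the median had the same sign against H23, EBC1 and H1975. KIT, FGFR3, CXCL5, CXCL6, FGB and EGF lie on chromosome 4, and PCNA, GINS1, E2F1, EEF1A2 and STMN3 on chromosome 20. These are examples only, and QDPR, which was off in H820, lies on chromosome 4 too. The part of chromosome position in the levels of single genes was not tested.

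**Figure D5:**
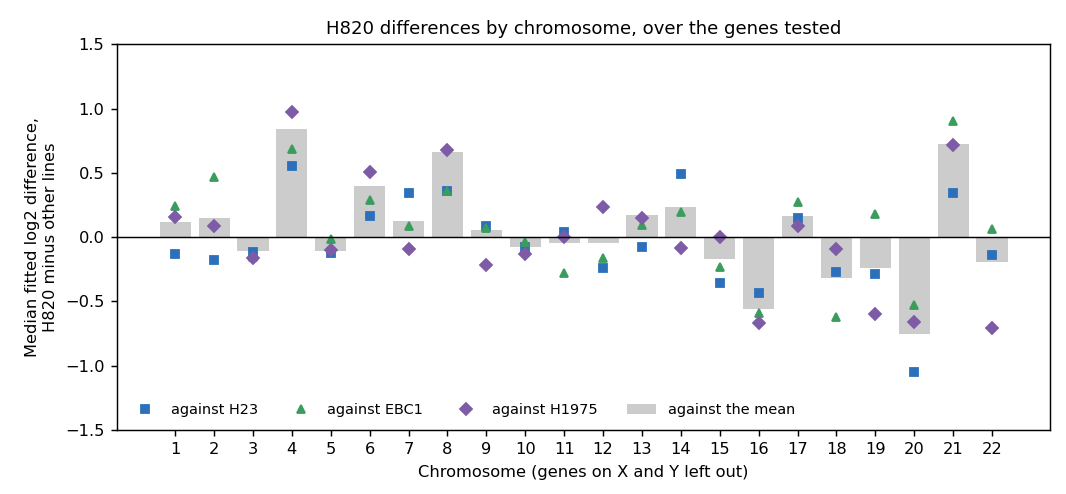
Median fitted log2 difference of H820 per chromosome over the genes tested, against the mean of the other lines (grey bars) and against each line (coloured marks). Chromosomes 4 and 21 lie above 0 and chromosomes 16 and 20 below 0 against all 3 lines.

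Of 514 windows of 5 megabases with at least 10 tested genes, the highest median, 4.75, was that of chromosome 8 from 75000001 to 80000000 (GRCh37), where 16 of 18 genes were called higher. The median of that window was 2.19 against H23, 1.80 against EBC1 and 6.85 against H1975. HNF4G lies there, with ZFHX4, a large zinc finger protein (29.7 and 32.6 CPM in H820, 4.86 and 5.46 in H23 and no count in EBC1 and H1975), and PKIA, an inhibitor of protein kinase A (44.6 and 49.6 CPM against at most 19.3). The next windows were chromosome 9 from 10000001 to 15000000 (median 3.09), with MPDZ at 78 and 91.6 CPM against at most 38.8, and chromosome 9 from 40000001 to 45000000 (median 2.29), which stood at 0.18 against H23, 3.71 against EBC1 and 3.67 against H1975. The lowest was chromosome 18 from 65000001 to 70000000 (median -1.93), where DSEL had 0.868 and 0.951 CPM against 9.85 to 60.1. Adjoining windows of chromosome 8, 10000001 to 15000000 (median -1.41) and 5000001 to 10000000 (-1.25), came next. XKR6, a membrane protein of the former, had no count in H820 and 4.73 to 7.09 CPM in all others, at least 55.5-fold lower, and AF131215.5 had no count against 3.86 to 6.8 CPM, while GATA4 in the same window had 3.99 and 6.32 CPM. Over all windows the 5th and 95th percentiles of the median were -0.85 and 1.25. Copy number of DNA was not analysed here.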

How the data were processed

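The data were raw counts as the authors deposited them, whole numbers of read pairs for each gene in 8 sphere libraries of 4 established lines, without any scaling. STAR 2.7.3a, featureCounts and Subread 2.0.0 and the builds GRCh37 and hg19 are named in the submitters' processing notes. The reverse-stranded setting is given per the file headers, and the exonic length of a gene, in bases, stands beside its deposited count. A pair that overlapped several genes on a strand was counted for each of them, and near copies such as SAA1 and SAA2 or the HLA genes may exchange reads.

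The 3028 genes on chromosomes X and Y were left out, and of the other 57078 genes 23419 passed edgeR's expression filter (minimum count 10, line as group). Counts were tested with edgeR 4.0.16 in R 4.3.3 (TMM scaling, quasi-likelihood F test, two-sided, cell line and treatment as terms), with Benjamini-Hochberg adjustment over all genes tested. Total counts per library ran from 5559870 to 27524854, and floors of 3 counts cover counting error only. In simulated data of the same size, made with known fold changes, all 50 genes changed 4-fold up and all 50 changed 4-fold down were called.

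The 41 gene lists (839 symbols, 833 matched) and the members described were chosen with earlier results of these data known. Named genes were the 12 highest and 12 lowest protein-coding genes with at least 10 CPM in the higher group, 7 genes always given, up to 4 genes per list by p, and further members needed to account for a list. Genes on or off and genes of the extreme windows were also named. Alternatives were DESeq2 1.42.0, limma-voom (limma 3.58.1), other scaling, other filters, thinned counts, no treatment term, each library left out and each line left out. The median of floored ratios of means, list counts without an H820 library, and the count of genes that passed the filter only through H820, were chosen after seeing the data. Some members of the lists are counted but not reported by name here. Promoter sequences came from RefSeq on GRCh38.p14, in a table that held 23 of the 29 genes searched by symbol.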

Additional observations from a re-analysis of the deposited data

How the results depend on the processing

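Calls of H820 against the mean of the other lines kept within 1.5 times of the reported counts under every other tool, scaling and filter that was run. Thinning all libraries to the smallest gave 3240 genes lower, 1424 higher and 943 lower against each of the 3 lines, and 1777 lower without overlap. Leaving out a line, which removes a contrast that must be passed, gave 2937 (H23), 3213 (EBC1) and 2889 (H1975) genes lower against each remaining line, and 4644 lower without overlap when EBC1 was left out. Leaving out single libraries gave 5713 to 7137 genes higher and 4628 to 6097 lower. Genes higher made up 56.9% of the calls, and 50.9% to 59.6% over the alternatives. Without H23 the log2 difference changed sign for EGFR (-0.59), MET (-0.38), HLA-DRA (-1.06), CD74 (-2.11), ST14 (-0.17), KRT7 (-1.85), KRT15 (-0.26), CLDN7 (-0.33), ALDH3B2 (-0.16), SCG2 (0.075), CDH1 (-1.28), HLA-B (-0.48) and HLA-C (-0.10); for KRT8 it did so without EBC1 (0.053) or H1975 (0.020), and for CYP1A1 without untreated H820 (-2.44, and 3.50 without treated H820). The cause of these changes was not tested. Over 263 named genes and 5488 pairs of gene and alternative, 16 pairs changed sign and 50 were no longer called. The labels number no replicates; treatment, which matches libraries across lines, was a term of every fit but the alternative without it. Genes at 0 in some line and the shallow untreated H820 library limit what can be read from low counts.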
